A study of Homo sapiens with 5 samples.

Results

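This account describes the inhibitors of cyclin-dependent kinases (CDKs) and the retinoblastoma family in HL60, a promyelocytic leukaemia cell line of human origin that is long established. The members were taken by symbol and comprise 10 genes of the 51055 in the deposited count table: CDKN1B, CDKN1C, CDKN2A, CDKN2B, CDKN2C, CDKN2D, CDKN3, RB1, RBL1 and RBL2. Each symbol matched 1 Ensembl gene ID, and all 10 passed the filter on low counts in every comparison. The study profiled 5 libraries in 3 groups by sequencing. The untransduced group (UNT, n = 1) held HL60 cells without a vector. The SCR group (n = 2) held HL60 cells with the control lentivector, which the labels describe both as scramble and as empty. The ZIP group (n = 2) held HL60 cells with a lentivector whose hairpin makes an antisense RNA to miR-378a-3p. Both vectors carry green fluorescent protein. SCR and ZIP cells received 20 infectious units each in polybrene at 8 µg/mL, per the labels. Their selection in puromycin at 2 µg/mL lasted from day 3 until day 8. The untransduced group has none of these entries, so effects of vector, polybrene and puromycin cannot be told apart in comparisons with it. Nothing in the labels says whether the replicates came from separate transductions or cultures, so the p-values capture only how far these libraries spread, and that spread may be technical.

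Cells pass from G1 into S phase when cyclin D with CDK4 or CDK6, and then cyclin E with CDK2, phosphorylate the retinoblastoma proteins and release E2F transcription factors. INK4 proteins (CDKN2A to CDKN2D) bind CDK4 and CDK6, whereas CIP/KIP proteins (CDKN1A, CDKN1B and CDKN1C) bind cyclin-CDK complexes, above all those of CDK2. The RB proteins differ in their partners: RB1 mainly binds activating E2F factors, and RBL1 (p107) and RBL2 (p130) mainly bind E2F4 and E2F5 and join the MuvB core to form the DREAM repressor complex, with RBL2 the usual partner in resting cells. HL60 cells lack the p53 gene, the best known inducer of CDKN1A.

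The vector of the ZIP group targets a 22-base microRNA, so its sequence and the places where its seed matches the members' mRNAs are shown first. Capitals mark the seed, bases 2 to 8, in the microRNA (RefSeq, GRCh38.p14, chr5:149732867-149732888, plus strand) and the complementary 7 bases, AGTCCAG, in the mRNAs (GENCODE 29 transcripts, GRCh38). The mRNA stretches are given on the strand of the gene.
hsa-miR-378a-3p: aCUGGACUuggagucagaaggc
RBL1, 3′ UTR, chr20:36996655-36996681, minus strand: ggattgcttcAGTCCAGgagttcaaga
CDKN2D, coding, chr19:10567317-10567343, minus strand: ctccggtaccAGTCCAGtccatgacgc
RBL2, coding, chr16:53480571-53480597, plus strand: tagagactccAGTCCAGttatgaggtc

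RBL1 was the only member with a seed match in a 3′ UTR, in 1 of its 2 coding transcripts searched. CDKN2D and RBL2 each had 1 match in coding sequence, and the other 7 members had none in any coding transcript. Of 19666 protein-coding genes, 12.3% held such a match in a 3′ UTR and 14.3% in coding sequence, so 1 and 2 of 10 members are close to those shares. A match of letters is a description and does not show that the microRNA binds there.

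The libraries held 24406580 to 30925067 counts. The MIR378A locus was at 0 counts in all libraries but ZIP 2, which had 2, so the knockdown and the labels could not be checked by it. Markers of promyelocytes were present in every library: the 6 genes (MPO, ELANE, PRTN3, AZU1, CTSG and CD33) summed to 11650 CPM in SCR 1, 11660 in SCR 2, and at least 22000 in the other 3 libraries. Most of each sum came from MPO, which had 9967 CPM in SCR 1, where CTSG had 76.45. CPM are counts scaled to a common library size, with TMM factors. Replicates lay close together, as the mean chi-square per gene was 2.65 (SCR pair) and 1.88 (ZIP pair), against 88.1 to 151 for libraries of different groups.

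The first question was how the members stood in cells with either vector relative to untransduced cells and to each other. In SCR cells 8 of the 10 members were higher than in untransduced cells and 0 were lower (edgeR quasi-likelihood test, Benjamini-Hochberg adjusted p under 0.05 over all genes), where 32.7% of the 15832 genes tested were higher and 32.2% were lower, 64.9% in all. At an unadjusted p under 0.05 there were also 0 lower, as with DESeq2. In ZIP against SCR 6 members were lower and 1 was higher, where 33.2% of 14643 genes were lower and 32.2% were higher, 65.4% in all. The members that fell were CDKN1B, CDKN2B, CDKN2C, CDKN2D, CDKN3 and RB1, and the member that rose was RBL2. Against untransduced cells, ZIP cells had 3 members higher, all of the RB family, and 1 lower, CDKN1B (28.5% and 29.7% of 15832 genes, 58.2% in all). The median log2 fold change of the members was 0.41 for SCR against untransduced, -0.31 for ZIP against SCR and 0.13 in ZIP against untransduced, beside medians of 0.016, -0.002 and 0.002 over all genes tested. The 2 comparisons with untransduced cells share that single library, whose spread was taken to be like that of the others.

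**Figure D1:**
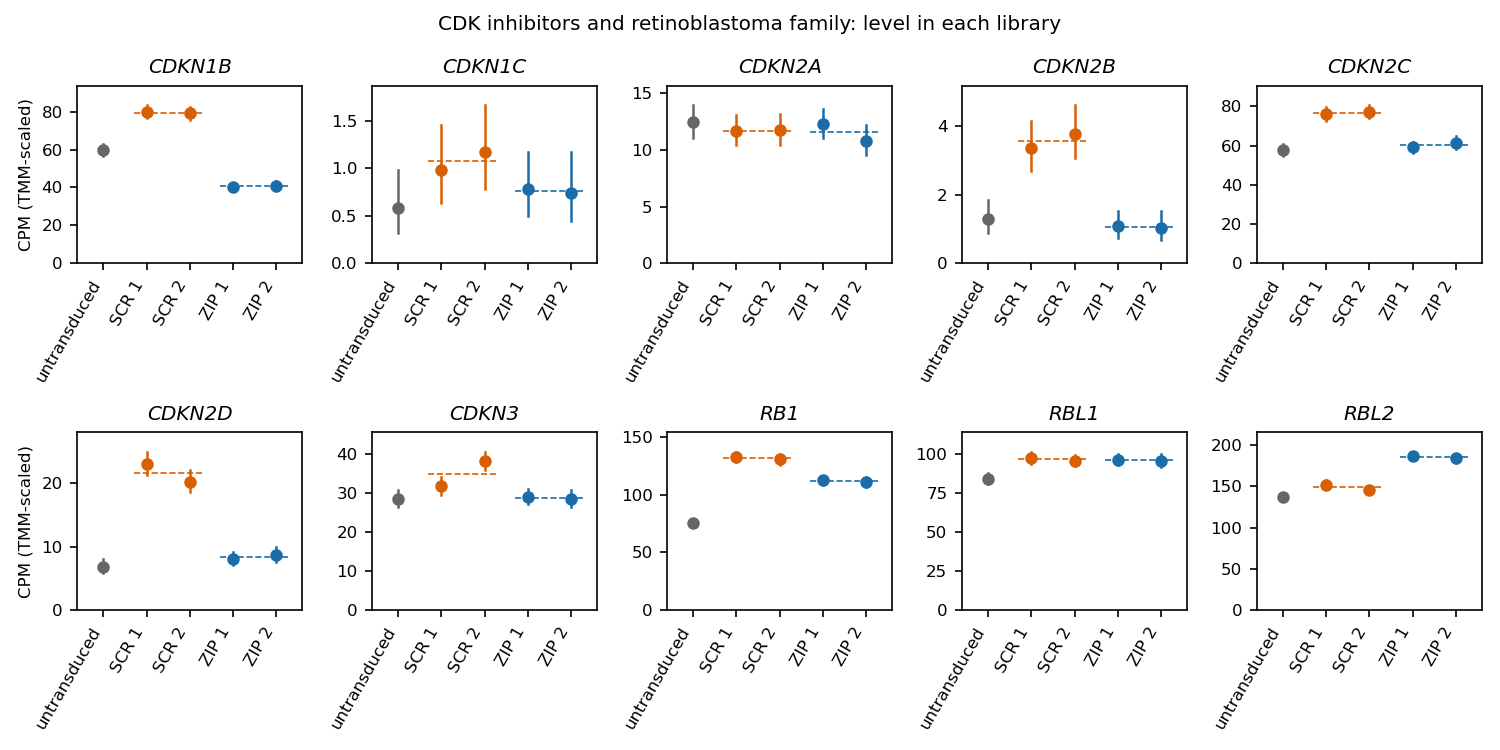
Level of each member (CPM, TMM-scaled, linear axes from 0) in the 5 libraries, grey for untransduced, orange for SCR and blue for ZIP. Vertical lines are exact 95% Poisson intervals, which cover counting error only, and dashed lines are group means. CDKN2B and CDKN2D stand apart in SCR, RBL2 is highest in ZIP (184 to 188 CPM), and CDKN2A is level across libraries (10.8 to 12.5 CPM).

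Both SCR libraries exceeded the other 3 libraries for 7 of the 10 members, a pattern seen in 28.9% of the 15832 genes. The exceptions were CDKN2A, RBL1 and RBL2. The ZIP and SCR libraries did not overlap for 8 members, all but CDKN2A and RBL1, as for 81.0% of genes tested. For 6 members, all of them CDK inhibitors or CDKN3, the mean ZIP level lay nearer to the untransduced than to the SCR level, as it did for 47.0% of genes. CDKN2A and the 3 RB family genes lay nearer to SCR. Since all of these are bulk libraries, a shift in the share of cells in a state and a change in RNA per cell cannot be told apart.

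Among the INK4 genes, CDKN2D and CDKN2B changed most. CDKN2D, which encodes p19INK4d (chromosome 19, 10566462 to 10569059 in GRCh38), stood at 6.84 CPM without a vector, 23.1 and 20.3 with SCR, and 8.03 and 8.68 with ZIP. Its SCR libraries were well above the others and no groups overlapped. The log2 fold change was 1.66 ± 0.12 (SE) in SCR against untransduced (adjusted p = 2.1e-11) and -1.38 ± 0.09 in ZIP against SCR (n = 2 and 2, adjusted p = 1.9e-11), a level 2.6-fold lower. In ZIP against untransduced it was 0.28, with a 95% interval of -0.01 to 0.57 (adjusted p = 0.0874). That difference did not pass, although with library totals in place of TMM factors it did (adjusted p = 0.0436).

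CDKN2B, which encodes the TGF-beta-inducible inhibitor p15INK4b (chromosome 9, 22002903 to 22009363), was scarce in every library. It had 31 counts without a vector (1.29 CPM), 85 and 97 with SCR (3.35 and 3.77 CPM), and 33 and 25 with ZIP (1.08 and 1.03 CPM). The SCR libraries were the high ones and lay above the counting intervals of all 3 others, whose intervals overlapped. The gene rose by 1.46 ± 0.25 on the log2 scale in SCR against untransduced (adjusted p = 2.2e-05) and fell by 1.75 ± 0.20 in ZIP against SCR (adjusted p = 1.9e-07), to a level 3.35-fold lower. The ZIP level differed from the untransduced one by -0.29, with an interval of -0.94 to 0.36. CDKN2B and CDKN2D were the only members past 2-fold in SCR relative to untransduced and in ZIP relative to SCR, where 20.4% and 14.1% of all genes changed by that much in either direction, 14.5% rising in SCR and 11.0% falling in ZIP. In ZIP against untransduced 0 members were past 2-fold by edgeR or DESeq2, also at an unadjusted p under 0.05, against 13.9% of genes.

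CDKN2C, the gene of p18INK4c, which has the highest INK4 level per length (chromosome 1, 50960745 to 50974633), moved the same way by less. Its level was 57.7 CPM without a vector, 75.97 and 77.1 with SCR, and 59.0 and 61.4 with ZIP. SCR was above both other groups without overlap, and ZIP was close to untransduced. The log2 fold change was 0.41 ± 0.05 in SCR against untransduced (adjusted p = 7.0e-08), -0.35 ± 0.04 in ZIP against SCR (adjusted p = 4.9e-08) and 0.06 in ZIP against untransduced (interval -0.04 to 0.16).

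CDKN2A encodes p16INK4a and, from another first exon, the p53 regulator p14ARF (chromosome 9, 21967753 to 21995301), and a count per gene does not separate the transcripts. It had 12.5 CPM without a vector, 11.7 in each SCR library, and 12.3 and 10.8 with ZIP. The ZIP libraries bracketed the SCR ones, and CDKN2A did not pass in any comparison. Its log2 fold change in ZIP against SCR was -0.01 with an interval of -0.20 to 0.18, which is narrow beside the changes of CDKN2B, its neighbour on the chromosome. CDKN2A and CDKN2B have a closely similar second exon, so the authors' counting could have misassigned some reads between them.

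Of the CIP/KIP members, CDKN1B is the abundant one. It encodes p27, which holds cells in G1 and is degraded through the SKP2 ubiquitin ligase (chromosome 12, 12715058 to 12722371). Its level was 59.6 CPM without a vector, 79.9 and 79.0 with SCR, and 40.1 and 41.0 with ZIP, so the 3 groups were separate, with SCR highest and ZIP lowest. It rose by 0.42 ± 0.05 on the log2 scale in SCR against untransduced (adjusted p = 4.6e-08) and fell by 0.97 ± 0.04 in ZIP against SCR (adjusted p = 1.3e-14), a level 1.96-fold lower. CDKN1B was also the member that fell in ZIP against untransduced, by 0.56 ± 0.05 (adjusted p = 2.4e-09).

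CDKN1C, the imprinted gene of p57 (chromosome 11, 2883213 to 2885773), was scarce in all libraries. It had 14 counts without a vector, 25 and 30 with SCR, and 24 and 18 with ZIP, or 0.584, 0.985, 1.17, 0.784 and 0.744 CPM. The counting intervals of all 5 libraries overlapped, and no comparison passed. The log2 fold change was 0.88 in SCR against untransduced (interval 0.01 to 1.74, adjusted p = 0.0705) and -0.49 in ZIP against SCR (interval -1.10 to 0.13, adjusted p = 0.156). With library totals the former passed (adjusted p = 0.0419). The CIP/KIP gene that is not a member, CDKN1A (p21), was also highest in SCR, with a far larger span: 0.667 CPM without a vector, 34.6 and 36.4 with SCR, and 0.882 and 0.703 with ZIP. The order of ZIP and untransduced was not resolved for CDKN1A (0.264 in log2, interval -0.555 to 1.083). Its log2 fold change was -5.46 ± 0.12 in ZIP against SCR (adjusted p = 7.4e-19).

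CDKN3 encodes a phosphatase that acts on CDK2 and peaks in dividing cells (chromosome 14, 54396849 to 54420218). It stood at 28.5 CPM without a vector, 31.8 and 38.2 with SCR, and 28.96 and 28.6 with ZIP. The 2 SCR libraries differed by more than counting error, with intervals of 29.6 to 34.0 and 35.9 to 40.7. CDKN3 rose by 0.30 ± 0.09 in SCR against untransduced (adjusted p = 0.00424) and fell by 0.28 ± 0.07 in ZIP against SCR (adjusted p = 0.00126). Without SCR 2 neither call remained, at 0.17 ± 0.09 (adjusted p = 0.085) and -0.14 ± 0.07 (adjusted p = 0.0834).

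In the RB family each of the 3 genes was higher in both vector groups than in the untransduced library. The vector cannot be told apart there from polybrene and puromycin selection. RB1, the tumour suppressor that restrains activating E2F factors (chromosome 13, 48303726 to 48599436), had 75.4 CPM without a vector, 133 and 131 with SCR, and 113 and 111 with ZIP. The groups did not overlap. RB1 rose by 0.81 ± 0.04 in SCR against untransduced (adjusted p = 2.1e-14) and by 0.57 ± 0.04 in ZIP against untransduced (adjusted p = 2.5e-11), and fell by 0.24 ± 0.03 in ZIP against SCR (adjusted p = 3.0e-07).

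RBL2, the pocket protein gene most tied to resting cells (chromosome 16, 53433977 to 53491649), was the member that rose in ZIP against SCR. Its level was 137 CPM without a vector, 152 and 146 with SCR, and 188 and 184 with ZIP, the reverse of RB1 in the order of the 2 vectors. The log2 fold change was 0.32 ± 0.03 in ZIP against SCR (adjusted p = 9.3e-09) and 0.44 ± 0.04 in ZIP against untransduced (adjusted p = 1.2e-09). In SCR against untransduced it was 0.12 ± 0.04 (adjusted p = 0.00934), and this small rise did not pass with DESeq2 (adjusted p = 0.0686) or without SCR 1 (adjusted p = 0.082).

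RBL1, itself a well known E2F target (chromosome 20, 36996349 to 37095995), stood at 84.3 CPM without a vector, 97.96 and 96.1 with SCR, and 96.5 and 96.1 with ZIP. The vector groups lay over each other, and both were above the untransduced library. RBL1 rose by 0.20 ± 0.04 in SCR (adjusted p = 1.0e-04) and by 0.19 ± 0.04 in ZIP (adjusted p = 2.3e-04) against untransduced. Its difference in ZIP against SCR was -0.01 with an interval of -0.07 to 0.05. RBL1 is the member with a seed match to miR-378a-3p in a 3′ UTR.

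**Figure D2:**
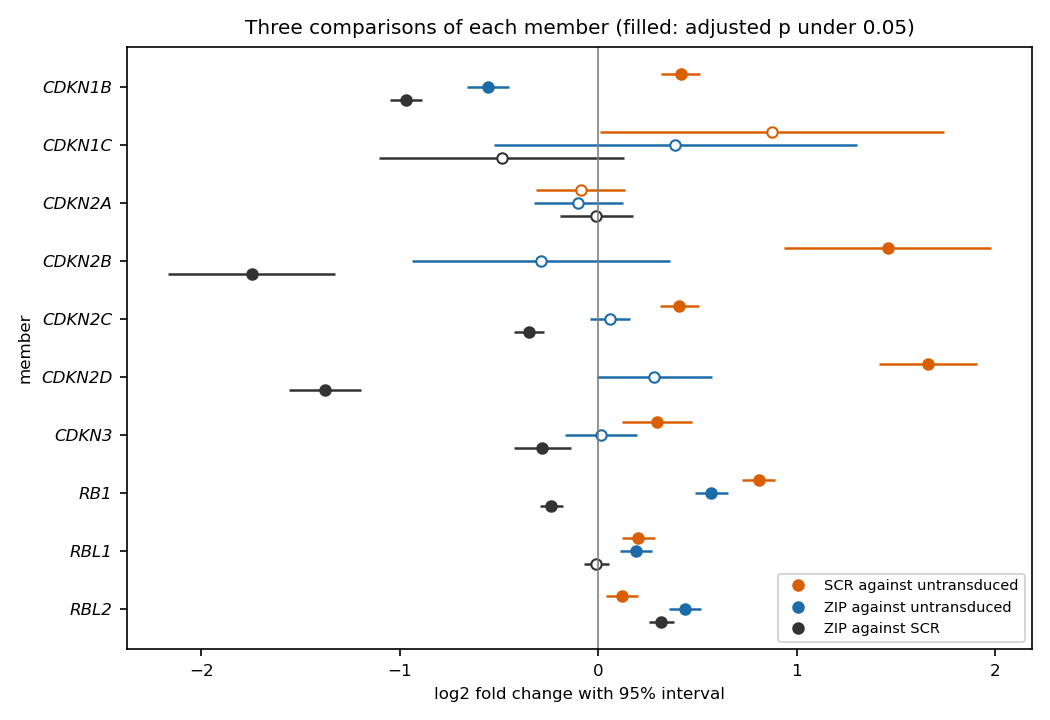
Log2 fold change (x axis) of each member (y axis) in SCR against untransduced (orange), ZIP against untransduced (blue) and ZIP against SCR (black), with 95% intervals of the edgeR fit. Filled points have an adjusted p under 0.05. CDKN2B and CDKN2D lie past 1 in SCR and past -1 in ZIP against SCR, and RBL2 is the only filled black point above 0.

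The start regions of the members that moved most and of RBL1 are shown to compare their sequence. Each window runs from 250 bases before to 50 after a RefSeq transcription start (GRCh38.p14) and is written on the strand of the gene. Capitals mark GC boxes (GGGCGG, either strand), to which SP and KLF factors bind, and E2F motifs (TTTCCCGC, TTTGGCGC, TTTCGCGC or TTTGCCGC, either strand).
CDKN2B, chr9:22009256-22009555, minus strand: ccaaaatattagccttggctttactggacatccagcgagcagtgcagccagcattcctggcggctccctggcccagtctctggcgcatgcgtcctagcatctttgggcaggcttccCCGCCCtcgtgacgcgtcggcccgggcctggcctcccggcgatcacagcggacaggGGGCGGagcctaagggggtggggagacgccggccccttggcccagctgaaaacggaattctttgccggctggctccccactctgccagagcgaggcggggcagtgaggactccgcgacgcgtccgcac
CDKN2D, chr19:10568930-10569229, minus strand: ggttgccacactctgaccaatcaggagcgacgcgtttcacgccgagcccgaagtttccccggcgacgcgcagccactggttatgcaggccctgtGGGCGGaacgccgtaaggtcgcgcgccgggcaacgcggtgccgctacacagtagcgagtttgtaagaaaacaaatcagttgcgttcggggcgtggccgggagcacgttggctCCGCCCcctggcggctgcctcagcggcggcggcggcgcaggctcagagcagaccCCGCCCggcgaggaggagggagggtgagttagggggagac
RBL1, chr20:37095948-37096247, minus strand: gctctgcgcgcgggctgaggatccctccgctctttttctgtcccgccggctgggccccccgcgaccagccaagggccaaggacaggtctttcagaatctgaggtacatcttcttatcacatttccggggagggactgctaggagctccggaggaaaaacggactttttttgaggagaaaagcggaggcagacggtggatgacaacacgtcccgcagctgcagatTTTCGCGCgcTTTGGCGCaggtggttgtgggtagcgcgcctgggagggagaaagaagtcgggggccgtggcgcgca

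CDKN2D held 3 GC boxes and CDKN2B 2, and neither held an E2F motif in this window. GC boxes were not limited to the members that moved most: CDKN2A held 2 and CDKN2C 6 at 1 of their starts, RBL2 2 at 1 start and CDKN1B 1. RBL1 held 2 E2F motifs, 26 and 16 bases before the start, and no GC box. An E2F motif occurred in 3.31% and a GC box in 45% of 35116 RefSeq promoters of the same length. The table had entries for 9 of the 10 members, and among them RBL1 alone had an E2F motif. The RB1 entry lies inside the gene, at chr13:48476200-48476499, and so does not describe the start of the full-length transcript.

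To compare levels between genes, CPM were divided by the kilobases of annotated exon, joined over all transcripts of a gene. The expressed transcripts can be shorter, so levels, sums and shares on this scale depend on the annotation. On this scale CDKN1B led in the untransduced library (21.2 CPM per kilobase), followed by RBL2 (18.8), CDKN2C (17.4), CDKN3 (15.5), RBL1 (14.2) and RB1 (11.7). CDKN2D (4.55), CDKN2A (2.88), CDKN2B (0.319) and CDKN1C (0.236) were lowest. In the SCR libraries CDKN1B remained first at 28.4 and 28.1, and CDKN2D stood at 15.3 and 13.5, near RBL1 at 16.5 and 16.1. RBL2 and CDKN3 changed places between the SCR libraries, with RB1 between them in each, so their order there was not resolved. In the ZIP libraries RBL2 led at 25.6 and 25.2, and CDKN1B was sixth at 14.3 and 14.6, behind CDKN2C, RB1, RBL1 and CDKN3.

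Summed over the 4 INK4 genes, the level per kilobase was 25.1 without a vector, 41.8 and 40.4 with SCR, and 26.2 and 27.04 with ZIP. CDKN2C supplied 69.1% of this in untransduced cells, 54.8% and 57.6% in SCR, and 67.8% and 68.5% in ZIP, while the share of CDKN2D was 18.1%, 36.7% and 33.4%, and 20.4% and 21.4%. The makeup of the INK4 mRNA pool in ZIP thus lay near that of untransduced cells. The pool includes all CDKN2A counts (6.47% in SCR 1 to 11.5% in untransduced cells), which do not separate p16INK4a from p14ARF. CDK4 and CDK6, the kinases that INK4 proteins bind, summed to 76.2 without a vector, 55.9 and 55.2 with SCR, and 64.7 and 64.3 with ZIP. For each 100 units of CDK4 and CDK6 there were 33.0 units of INK4 mRNA without a vector, 74.7 and 73.2 with SCR, and 40.6 and 42.1 with ZIP.

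The CIP/KIP sum, CDKN1A included, was 21.7 per kilobase without a vector, 40.2 and 40.5 with SCR, and 14.9 and 15.1 with ZIP. Here ZIP was the lowest group in the sum, through CDKN1B. CDK2 itself stood at 31.8 without a vector, 22.2 and 21.7 with SCR, and 21.8 and 20.5 with ZIP. Per 100 units of CDK2, CIP/KIP mRNA stood at 68.1 units without a vector, 181 and 187 with SCR, and 68.3 and 73.8 with ZIP. By this ratio ZIP lay near untransduced and was not the lowest. The RB family summed to 44.6 without a vector, 57.9 and 56.4 with SCR, and 59.3 and 58.5 with ZIP, so the vector groups differed little in the sum. They differed in its makeup: RB1 gave 35.6% and 36.0% of the family in SCR and 29.4% in each ZIP library, and RBL2 gave 35.9% and 35.4% in SCR and 43.2% and 43.0% in ZIP. The untransduced library had 26.2% RB1 and 42.1% RBL2. These sums, ratios and shares are descriptions of mRNA, with no test.

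**Figure D3:**
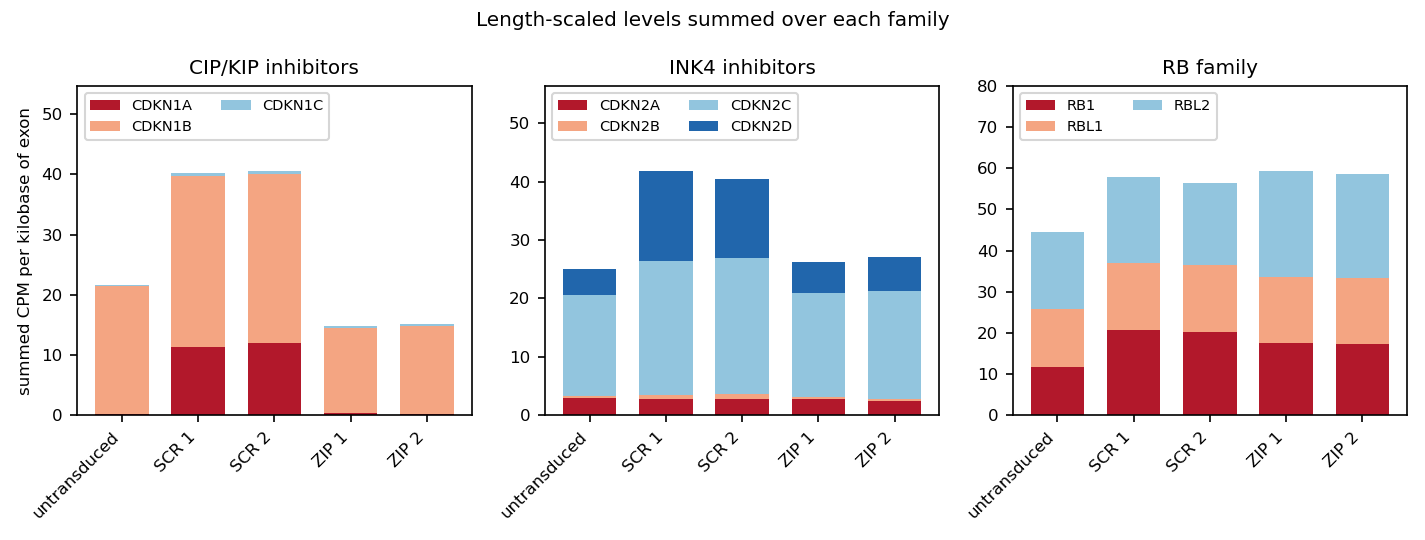
Level per kilobase of exon (y axis, CPM per kilobase, from 0) summed over the CIP/KIP, INK4 and RB families in each library (x axis), with 1 colour per gene. The CIP/KIP and INK4 sums are highest in SCR (40.2 to 41.8), and the RB family sum is lowest in the untransduced library (44.6).

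The partners and targets of these proteins were followed in 7 lists. Of 5 D-type cyclin and CDK4/6 genes 2 rose and 1 fell in ZIP against SCR (median log2 fold change 0.05). CCND3, a D-type cyclin of blood cells, stood at 75.3 CPM without a vector, 266 and 255 with SCR, and 68.95 and 68.6 with ZIP (-1.92 ± 0.03 in ZIP against SCR). CCND2 ran opposite to it, at 91.9 CPM, then 29 and 27.8, then 43.8 and 46.5 (0.67 ± 0.05), and CDK4 rose by 0.31 ± 0.03. In SCR against untransduced 1 gene of this list rose, CCND3, and the other 4 fell.

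Of 9 genes for cyclins E and A, CDK2 and its activators, 5 fell and 1 rose in ZIP against SCR (median -0.23). CCNA1, an A-type cyclin of germ cells and myeloid leukaemias, had 1.001 CPM without a vector, 47.96 and 47.5 with SCR, and 6.46 and 5.04 with ZIP, a log2 fold change of -3.03 ± 0.08 in ZIP against SCR. CCNE2 fell by 0.51 ± 0.08 and CCNH, a subunit of the CDK-activating kinase, by 0.25 ± 0.05. Relative to untransduced cells, 4 of the 9 rose and 2 fell in SCR.

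Of 10 E2F and DP genes 4 rose and 5 fell in ZIP against SCR (median 0.03, and -0.03 with library totals). TFDP1 and TFDP2, the dimerization partners of E2F factors, rose by 0.53 ± 0.02 and 0.67 ± 0.03, whereas the activator E2F2 fell by 1.08 ± 0.06. TFDP2 was at 316 CPM without a vector, 100.2 and 103.9 with SCR, and 163 and 161 with ZIP. The SCR cells had 2 of the 10 higher and 6 lower than untransduced cells.

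The MuvB list, of which 6 of 7 genes were found, had 3 lower and 1 higher in ZIP against SCR (median -0.06). The MuvB subunits LIN9 and LIN52 fell by 0.39 ± 0.07 and 0.48 ± 0.11, and MYBL2, the mitotic partner of MuvB, rose by 0.19 ± 0.03. Of 6 genes of p27 turnover 3 rose and 1 fell (median 0.04). SKP2, which recognizes p27 for degradation, stood at 112 CPM without a vector, 71.5 and 65.9 with SCR, and 77.9 and 79.9 with ZIP, a rise of 0.20 ± 0.04 in ZIP against SCR. Its cofactor CKS1B fell by 0.55 ± 0.04, and the scaffold CUL1 rose by 0.42 ± 0.03. SKP2 and CDKN1B moved in opposite directions in SCR against untransduced (-0.71 ± 0.04 for SKP2) and in ZIP against SCR, and both were lower in ZIP than in untransduced cells.

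Of 16 S phase genes regulated by E2F, 5 rose and 8 fell in ZIP against SCR (median -0.06). RRM2 and TK1, which supply nucleotides, fell by 0.54 ± 0.03 and 0.71 ± 0.04. In SCR against untransduced 6 of the 16 rose and 7 fell (median -0.04). The list of CDK1 and mitotic cyclins also held the genes CDC25B, CDC25C, PLK1, AURKA and AURKB. It was less mixed: 7 of 8 genes fell and 1 rose in ZIP against SCR (median -0.34). In SCR against untransduced 5 rose while 3 did not pass (median 0.16). CCNB1 fell by 0.48 ± 0.03, CDC25B by 0.57 ± 0.04 and CDC25C by 1.27 ± 0.09 in ZIP against SCR. Against untransduced cells, ZIP cells had all 5 D-type cyclin and CDK4/6 genes lower (median -0.39), 7 of 10 E2F and DP genes lower and 3 higher (median -0.31), and 9 of 16 S phase genes lower and 4 higher (median -0.15). In p27 turnover 4 of 6 were lower and 1 was higher (median -0.48). The other counts were 2 higher and 2 lower among cyclins E and A with CDK2 (median -0.12), 2 higher and 1 lower in MuvB (median 0.09), and 3 higher and 3 lower among CDK1 and mitotic cyclins (median -0.08). In SCR against untransduced 2 MuvB genes rose and 4 did not pass, and in p27 turnover 1 rose and 3 fell. All values named for single genes of these lists have adjusted p-values of 8.1e-04 or less in ZIP against SCR (edgeR quasi-likelihood test, Benjamini-Hochberg).

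**Figure D4:**
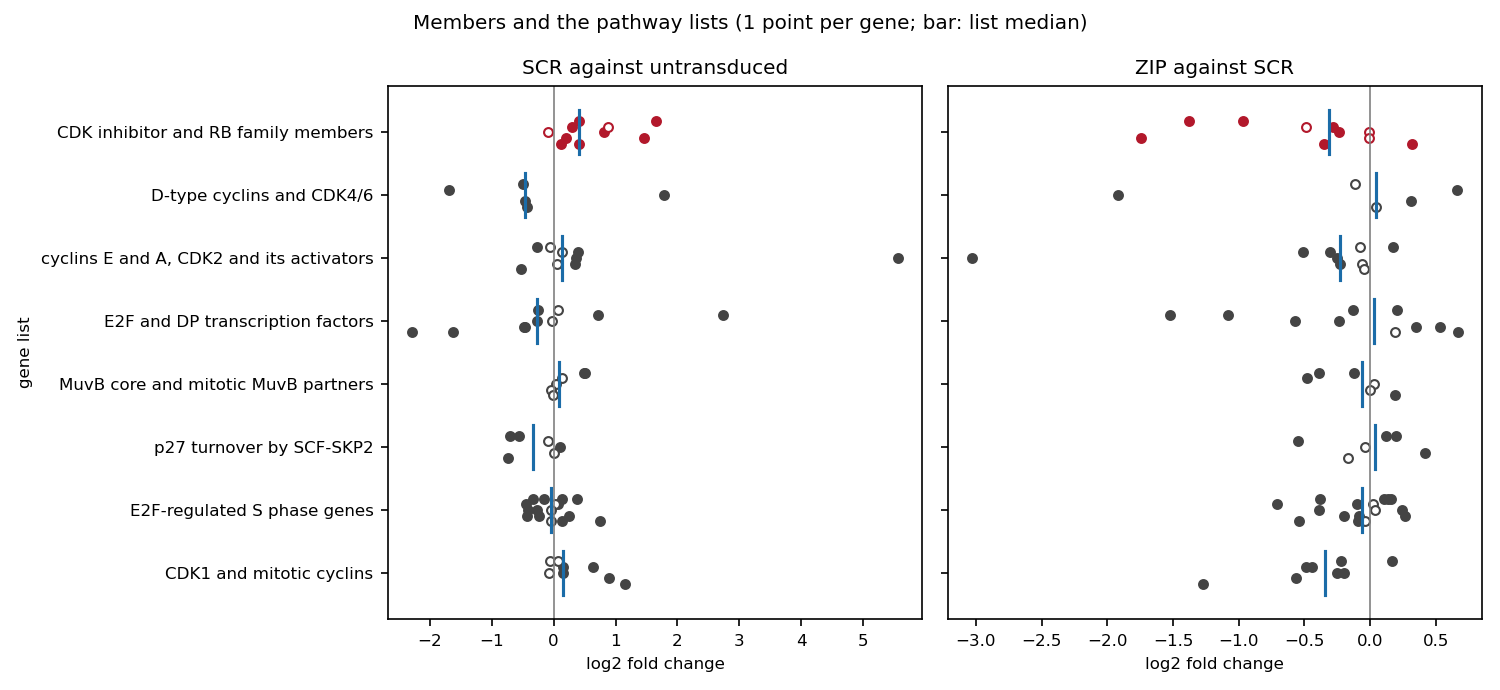
Log2 fold change (x axis) of every measured gene of the members (red) and of the 7 pathway lists (y axis), in SCR against untransduced on the left and ZIP against SCR on the right. Filled points have an adjusted p under 0.05 and blue bars are list medians. The members' median is 0.41 on the left and -0.31 on the right, and the list of E2F-regulated S phase genes has a median near 0 on both sides.

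Markers of myeloid maturation moved across the same groups. All 11 monocyte and macrophage markers found, such as CD14 and CSF1R, were higher in SCR than in untransduced cells, and 9 of 11 were lower and 1 higher in ZIP than in SCR. The 1 that was higher was LYZ, at 323 CPM without a vector, 1115 and 1121 with SCR, and 1392 and 1394 with ZIP. LYZ was the most abundant of them. With it, the 11 markers summed to 360.8 CPM, then 1393 and 1406, then 1466 and 1468 in the same order. Without LYZ, the other 10 markers summed to 38.2 CPM without a vector, 279 and 286 with SCR, and 73.8 and 73.9 with ZIP. None of these 10 was at 0 in any library. Promyelocyte markers went the other way, with 6 of 6 lower in SCR than in untransduced cells and 5 of 6 higher in ZIP than in SCR. Of the lists for other cell types, T and NK cell markers were also highest in SCR, at 12.7 CPM in sum without a vector, 23.3 and 21.0 with SCR, and 12.9 and 13.9 with ZIP, nearly all of it from NKG7. B cell markers were highest without a vector, at 4.63 CPM in sum, then 3.19 and 2.99 with SCR, and 1.96 and 1.94 with ZIP, mostly from CD79A, while MS4A1 had no count in any library. Epithelial and fibroblast markers summed to 0.868 to 2.80 CPM, and among them KRT18 had 0 counts without a vector, 30 and 33 with SCR, and 5 and 4 with ZIP. Erythroid markers summed to 0.118 CPM at most, and the globin genes HBB, HBA1 and HBA2 had no count in any library. The part of these shifts in the values of CDKN2D, CDKN2B, CDKN1B and the other members was not tested.

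Some members overlap other genes, and whether the authors' counting used strand is not known from the sources at hand. CDKN2B-AS1, which shares exonic bases with CDKN2A on the opposite strand and spans CDKN2B, had 43 counts without a vector, 54 and 47 with SCR, and 25 and 25 with ZIP. It fell by 1.11 ± 0.25 in ZIP against SCR (adjusted p = 5.2e-04), and its log2 fold change in SCR against untransduced was 0.14 (interval -0.42 to 0.70). AKTIP overlaps RBL2 exons on the opposite strand and had 140 to 222 counts per library, against 3292 to 5743 for RBL2. LPAR6 lies in an RB1 intron on the opposite strand and, like RB1, was high in SCR, at 3.88 CPM without a vector, 18.7 and 18.9 with SCR, and 9.501 and 9.71 with ZIP. RCBTB2 overlaps the RB1 span without sharing exonic bases and stood at 8.80, 21.7, 20.8, 10.4 and 11.1 CPM in the same order.

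The genes whose patterns over the 5 libraries were most like those of 2 members were sought among 11984 genes with a symbol and a mean of at least 1 CPM. Likeness was the root mean square distance between log2(CPM + 0.5) values centred on their mean. For RBL2, the member with the largest rise in ZIP against SCR, the nearest were the kinase gene ABL2 (0.00907), the spliceosomal helicase gene AQR (0.0124) and FBXW2 (0.0136). ABL2 stood at 20.3 CPM without a vector, 22.5 and 21.7 with SCR, and 28.1 and 27.7 with ZIP. For CDKN2B, with the largest fall, the near genes included the ferritin heavy chain gene FTH1 (0.0409), whose counts are uncertain because of its many processed pseudogenes, and LINC00599 (0.0492). FTH1 stood at 29.2, 65.1, 71.5, 27 and 27.03 CPM in the same order of libraries. With 3 distinct groups, likeness over these libraries is a description of level alone.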

How the data were processed

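The deposited table holds raw counts per Ensembl gene ID for 51055 genes in 5 libraries, with no normalization by the authors, as the whole-number values show. Bowtie2 and featureCounts are named in the submitters' processing notes, while the design text names TopHat 2, Cufflinks and HTSeq. Not given in the sources used here are the tool that made the counts, the genome build, the annotation and strand use. The labels name a small RNA kit, yet protein-coding genes held 96.6% to 97.1% of counts. Columns were matched to libraries by description, 0 columns belonged to other samples and 0 rows named no gene. Symbols, positions and exon lengths are from GENCODE 29 (GRCh38), which held 44305 of the IDs.

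The tests used edgeR 4.0.16 under R 4.3.3 (filterByExpr with a minimum count of 10 and minimum total of 15, TMM, quasi-likelihood test, Benjamini-Hochberg at 0.05). The code was tried on simulated counts with a single fixed spread, close to that of these libraries. Such a trial cannot show how the calls would hold in separate cultures. ZIP against SCR used 4 libraries and the other comparisons all 5, with 2 residual degrees of freedom each. The SE is the log2 fold change divided by the root of the F statistic, and intervals are 95%. DESeq2 1.42.0, other scalings, no filter, each library left out and a replicate block were alternatives. Intervals of single libraries cover counting error only, and 3 counts equal 0.0979 to 0.125 CPM. Named were all members, CDKN1A, overlapping genes, the 3 genes of smallest p in ZIP against SCR in each pathway list, and the 3 genes most like the members with the largest rise and fall. The members and lists were chosen with earlier results of these data known. LIN37 and MRC1 were not matched and are not analysed here. A few genes that the naming rule selects are not reported here.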

Additional observations from a re-analysis of the deposited data

How the results depend on the processing

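Over 10 alternatives for ZIP against SCR and 8 for each comparison with untransduced cells, 280 of 286 values of the members and CDKN1A kept their direction, where it was called, and their side of the threshold. The other 6 were the CDKN3 and RBL2 calls lost and the CDKN1C and CDKN2D calls gained, as given with those genes. With library totals CDKN1B also passed 2-fold in ZIP against SCR, making 3 members, and the median of all genes in SCR against untransduced moved from 0.016 to 0.126, so rises read larger and falls smaller on that scale. The genes called there then split into 6155 higher and 4121 lower (59.9% higher, against 50.4% with TMM), and in ZIP against SCR into 4028 higher and 5490 lower (42.3%, against 49.2%). In ZIP against SCR, list medians near 0 changed sign with library totals for D-type cyclins and CDK4/6 (-0.011), E2F and DP genes (-0.031) and p27 turnover (-0.020), and the E2F and DP median ranged from -0.063 (without ZIP 1) to 0.049 (without ZIP 2) over the libraries left out. In SCR against untransduced the median of E2F-regulated S phase genes became 0.066 with library totals. With DESeq2, 2985 genes were lower in ZIP than in untransduced cells, not 4704, and 1414 changed at least 2-fold, not 2199. The cause was not tested. The replicate block left 1 member higher and 6 lower, with 4790 genes higher and 4919 lower. The pairing of numbers is not described in the labels, and same-numbered deviations had a correlation of 0.0161 over 14643 genes. The untransduced library has no replicate number in its label, so no block was fitted in the comparisons with it. Depth limits CDKN1C and CDKN2B, at 14 to 30 and 25 to 97 counts.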
